A study of Mus musculus with 2 samples.

Results

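The circadian clock genes described here are Per1, Per2, Per3, Cry1, Cry2, Arntl, Clock, Nr1d1, Nr1d2 and Dbp, measured in the granule layer of the mouse cerebellum. They were selected by symbol as known clock genes, by a rule that sets no level, though with earlier results of these data known, and all 10 were found among the 43346 rows with Ensembl gene IDs. The data are 2 RNA sequencing libraries, each from 1 area of the layer cut out by laser capture, with a labelled area of 18000 square microns and a labelled starting quantity of 50 cells. Both areas came from wild-type adult male mouse tissue aged 8 months, of the strain B6NCrl, which the labels also call C57Bl6. The areas are numbered biological replicates 1 and 2 and share 1 donor label, so the spread between them covers capture, amplification and sequencing, and whether it covers animals is not known. They form 1 group with no contrast between conditions. The time of day at which tissue was taken is not given in the sources used here, so the values below are levels at an unstated time.

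The mammalian clock is a feedback loop of transcription. The proteins CLOCK and ARNTL (also called BMAL1) bind E-box sequences as a pair and switch on the Per, Cry, Nr1d and Dbp genes. PER and CRY proteins then hold CLOCK and ARNTL back. NR1D1 and NR1D2 (REV-ERB alpha and beta) repress Arntl through receptor elements that ROR proteins also use, and DBP activates genes that carry a D-box. In many tissues the mRNA of Arntl peaks at a phase opposite to those of Nr1d1, Dbp and the Per genes, and the cerebellum is known to hold such a clock outside the brain's pacemaker in the hypothalamus.

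Sequences at the starts of these genes are shown first because the loop runs through them. RefSeq promoter windows on GRCm38.p6, from 250 bases before to 50 bases after a start, were found for 9 of the 10 genes, in 13 windows; Per2 had no entry. The windows were searched on both strands for the E-box CACGTG, its variant CACGTT, the receptor core AGGTCA and the D-box, taken as TTATGNAA or TTACGTAA. The lines below print every match of the E-box, its variant and the D-box, but of the receptor core only that in Nr1d2. Capitals in them mark the motif, read 5′ to 3′ on the gene's own strand.
Per1, E-box, chr11:69098771-69098800, plus strand: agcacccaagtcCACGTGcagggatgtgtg
Cry1, E-box variant (as its complement) and E-box, chr10:85185107-85185136, minus strand: agaAACGTGaggtgccggtggtCACGTGgg
Cry2, E-box variant (as its complement), chr2:92434218-92434247, minus strand: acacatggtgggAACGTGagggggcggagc
Nr1d1, E-box variant (as its complement), chr11:98775388-98775417, minus strand: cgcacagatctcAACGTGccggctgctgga
Nr1d2, receptor core, chr14:18239166-18239195, minus strand: gattggaagaagAGGTCAggaccgctcgtt
Per3, D-box, chr4:151044852-151044881, minus strand: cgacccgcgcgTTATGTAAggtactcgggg
Per3, D-box, chr4:151044805-151044834, minus strand: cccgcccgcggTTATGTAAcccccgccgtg
Per1, D-box, chr11:69098914-69098943, plus strand: agggcctggcaTTATGCAAcccgcctccca

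The E-box stood in windows of 2 of the 9 genes, Per1 and Cry1, and in 8.09% of the 27025 genes with a window. Its variant was in 3 of the 9 (Cry1, Cry2 and Nr1d1) and in 5.44% of all genes. The receptor core was in 4 (Arntl, Clock, Nr1d2 and Per1) against 18.1% of all genes, and the D-box in 2 (Per1 and Per3) against 4.11%. Some genes have more than 1 window. By window the E-box was in 2 of 13 against 7.15% of all 32851, and its variant in 3 against 4.68%. The receptor core was in 4 of the 13 against 16.3%, and the D-box in 2 against 3.50%. Per1 has a start at 69098949 with the E-box 166 bases before it, and another at 69100152 whose window held none of the 4 motifs. A match is a match of letters only, and its absence covers only these windows.

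The tissue label was set beside lists of cell type markers, which were chosen with earlier results of these data known. All 8 granule neuron markers were detected in both areas, led by the GABA-A receptor subunit gene Gabra6 at 1006 ± 114 TPM, with Neurod1 at 427 ± 15.5 and Cbln3 at 205 ± 8.01 (SD, n = 2). TPM is the number of transcripts per 1000000, a level already divided by transcript length. Gene totals were 19962241 counts in replicate 1 and 19261904 in replicate 2. Summed marker levels were 2089 and 2315 TPM for granule neurons, 410 and 376 for Bergmann glia and astrocytes, 547 and 666 for oligodendrocytes, and 353 and 422 for Purkinje cells. Microglia markers summed to 72.4 and 54.4 TPM, endothelial markers to 155 and 130, mural markers to 38.2 and 66.6, Golgi cell markers to 46.8 and 34.3 and unipolar brush cell markers to 56.3 and 80.1. Red blood cell markers differed most, at 5036 and 388 TPM. The unipolar brush cell sum rose in replicate 2, while that list's median log2 ratio of TPM + 1, replicate 2 over replicate 1, was -0.50. Markers detected in both areas were 5 of 6 for Bergmann glia and astrocytes, 5 of 6 for microglia and 4 of 5 for endothelial cells. They were 3 of 6 for mural cells and 2 of 3 for unipolar brush cells. All markers of the other lists were detected. In the Bergmann glia and astrocyte list Gdf10 was not detected, at 0.07 and 0.05 TPM. Aldoc gave most of that list's sum, at 276 and 254 TPM. No marker was at 0 counts in both areas; Acta2 and Tagln, both mural, were at 0 in replicate 1 and the unipolar brush cell gene Lmx1a in replicate 2.

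All 10 clock genes were detected in both areas, which required 5 or more expected counts and a TPM of 1 or more. Their mean levels ran from 2.24 TPM for Per2 to 77.5 TPM for Per3, a 34.7-fold range. The median was 17.9 TPM, against 14.3 for the 10817 protein-coding genes detected in both areas, and 6 of the 10 stood above that median. In falling order of mean TPM they were Per3, Nr1d2, Dbp, Cry2, Clock, Cry1, Nr1d1, Arntl, Per1 and Per2. In 8 of the 9 neighbouring pairs both areas of the higher gene lay above both areas of the lower one, and the exception was Per1 and Per2. Per3 and Nr1d2 alone held 64.6% of the 17723 counts of the 10 genes in replicate 1 and 61.5% of 16809 in replicate 2. The levels belong to the whole captured area: fewer cells of a type and less RNA per cell cannot be told apart.

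**Figure D1:**
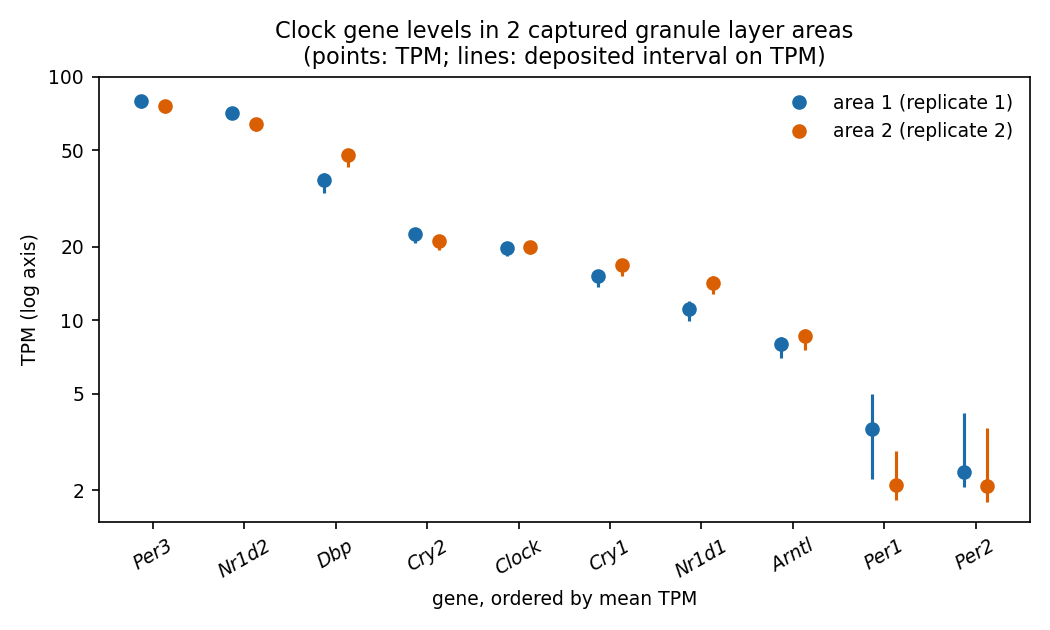
TPM on a log axis for the 10 clock genes in area 1 (blue) and area 2 (orange), ordered by mean; vertical lines are the interval on TPM deposited by the authors, which belongs to their posterior mean and so can end below the point. Per3 and Nr1d2 stand highest at 63.9 to 79.3 TPM, and Per1 and Per2 lowest at 2.08 to 3.58 TPM.

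The activators came from the middle and lower part of this order. Clock, which encodes the larger DNA-binding partner (chromosome 5, 76209868 to 76304792), was at 19.8 TPM in replicate 1 and 20.0 in replicate 2, from 2498 and 2463 counts. These values were the closest between areas of any of the 10, at 19.9 ± 0.198 TPM. Arntl, its obligate partner (chromosome 7, 113207465 to 113314126), was at 7.97 and 8.60 TPM, from 383 and 402 counts. Clock was thus 2.40 ± 0.105 times Arntl per length (SD, n = 2), and both areas gave the same order. Each of these genes has 1 transcript in the deposited tables, so their TPM does not depend on a division among isoforms. The ratio did depend on the length used: per kilobase of all annotated exons it was 3.57 and 3.36.

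Among the Period genes, which encode the repressors whose build-up times the loop, Per3 stood far from its paralogs. Per3 (chromosome 4, 151003652 to 151044665) was at 79.3 and 75.7 TPM, from 5925 and 5500 counts. Per1 (chromosome 11, 69095217 to 69109960) was at 3.58 and 2.10 TPM from 148 and 153 counts, and Per2 (chromosome 1, 91415982 to 91459324) at 2.39 and 2.08 TPM from 235 and 199 counts. Per3 exceeded the sum of Per1 and Per2 13.3-fold in replicate 1 and 18.1-fold in replicate 2. The size of this ratio depended on the length used: it was 9.29 and 9.36 per kilobase of all annotated exons, and 4.35 and 6.08 with transcripts typed as coding. Per3 was above the sum on each scale. Per1 and Per2 overlapped, and their deposited intervals on TPM did too, at 2.23 to 4.99 and 2.08 to 4.15 in replicate 1. Among detected protein-coding genes Per3 lay at percentiles 86.1 and 85.3, Per1 at 16.4 and 7.93, and Per2 at 8.94 and 7.77.

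Most of the Per3 signal was assigned to a transcript that the annotation does not type as coding. Per3-204 (ENSMUST00000138052, a processed transcript, 151003786 to 151016145) was at 50.4 and 48.2 TPM and held 63.6% and 63.7% of the gene. Per3-201 (ENSMUST00000103204), which carries the 3339-base coding sequence, was at 26.0 and 24.7 TPM, or 32.8% and 32.6%. The division was thus nearly equal in both areas. Of the 3663 bases of Per3-204, 3526 are also in Per3-201, all in its last 6 exons, and 137 bases form a first exon of its own at 151016009 to 151016145. By expected counts Per3-204 held 52.0% in both areas. Which transcript a read in the shared exons came from rests on the authors' estimate, and a pile-up of reads toward the 3′ end was not tested.

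The 2 transcripts part at 1 exon junction, shown on GRCm38 with the 15 bases of the differing upstream exon in capitals and the 15 bases of the shared exon (151013542 to 151013769) in lower case, on the minus strand.
Per3-204: ACGTTGTGCTGAAATaaagtgttgccgtgg
Per3-201: CGCCCCTACAGTCAGaaagtgttgccgtgg

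In Per1 the deposited TPM moved between areas while the counts did not. Per1 had 7.41 and 7.94 counts per 1000000 in the areas, a fold of 1.07 for replicate 2 over replicate 1 with a 95% counting interval of 0.849 to 1.35. Its TPM nevertheless fell from 3.58 in replicate 1 to 2.10 in replicate 2, since the length used for the gene was 2510 bases in replicate 1 and 4467 in replicate 2. In replicate 1, 12.4 counts were assigned to Per1-204, a transcript of 496 bases starting at 69100152, which gave it 1.82 TPM and 50.7% of the gene. In replicate 2 it had 0 counts, and Per1-203, which starts at 69100522, held 77.5% against 33.5% in replicate 1. The deposited posterior means gave a smaller change, with Per1-204 at 49.4% and 10.8% and Per1-203 at 25.3% and 42.9%. Per1-201, whose start at 69098948 lies next to that of the window with the E-box printed above, was at 0.570 and 0.350 TPM. By TPM Per2 was assigned wholly to Per2-201, of 5833 bases, in both areas. By the deposited posterior mean Per2-201 held 79.2% and 79.8%, with the rest on Per2-202, a processed transcript of 231 bases with 0 expected counts.

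The cryptochromes, which bind CLOCK and ARNTL directly and are the stronger repressors, were both in the middle of the order. Cry2 (chromosome 2, 92403646 to 92434043) was at 22.5 and 21.3 TPM, from 1225 and 1156 counts. Cry1 (chromosome 10, 85131700 to 85185064) was at 15.2 and 16.8 TPM, from 757 and 817 counts. Per transcript length Cry2 was above Cry1 1.49-fold and 1.26-fold. This order depended on the length used: per kilobase of all annotated exons, the ratio of Cry2 to Cry1 was 0.855 and 0.748. Part of the Cry2 level belonged to Cry2-203, a processed transcript of 2 exons, at 5.92 and 5.07 TPM. The coding transcripts of Cry2 together were at 16.3 ± 0.509 TPM, against 16.0 ± 1.17 for the only transcript of Cry1, and at that level the areas overlapped.

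**Figure D2:**
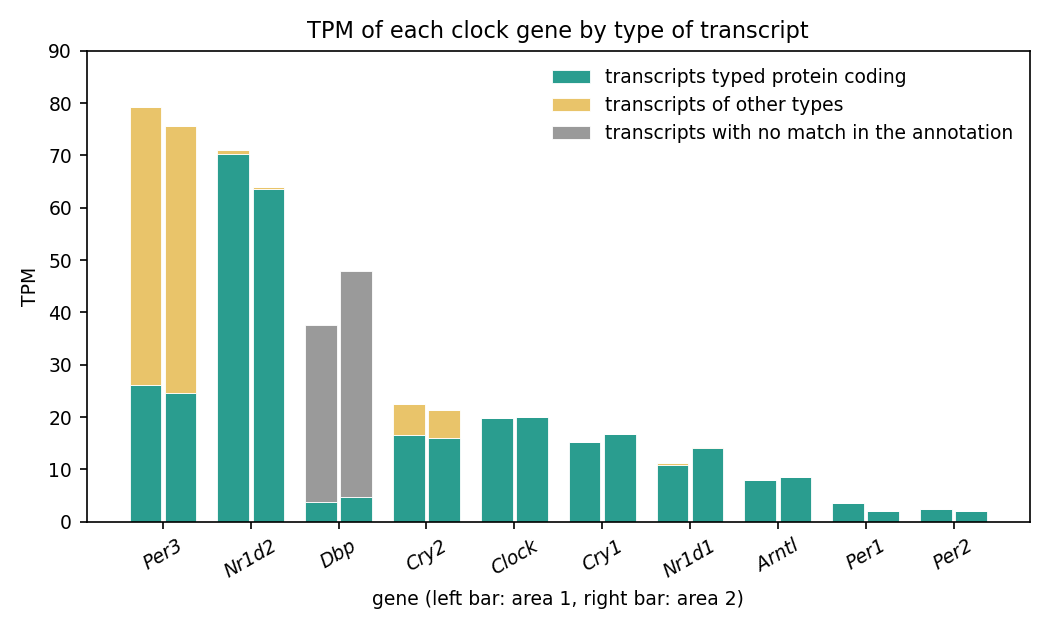
TPM of each clock gene in area 1 (left bar) and area 2 (right bar), divided by the type that the annotation gives its transcripts. Per3 is mostly of other types and Dbp mostly of transcripts with no match in the annotation, while the remaining genes are mostly protein coding.

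The REV-ERB receptors differed widely from each other. Nr1d2 (chromosome 14, 18204054 to 18239127) was at 71.0 and 63.9 TPM, from 5516 and 4842 counts. Nr1d1 (chromosome 11, 98767932 to 98775333) was at 11.2 and 14.3 TPM, from 493 and 615 counts. Nr1d2 was 6.36 times Nr1d1 in replicate 1 and 4.48 times in replicate 2, and nearly the same on exon length, at 6.36 and 4.48. Nr1d2-201, its coding transcript, held 99.0% and 99.6% of the gene. The end of Nr1d1 overlaps Thra, a thyroid hormone receptor gene on the opposite strand, by 263 exon bases (98768157 to 98768419). Thra was at 70.8 and 64.8 TPM, above Nr1d1 in both areas, and the posterior SD of the Nr1d1 count, the authors' measure of uncertain assignment, was 6.03 and 7.02. Whether strand was used in counting is not given in the sources used here, so from these counts the genes' reads in these bases cannot be told apart.

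Dbp encodes a PAR bZIP activator that is a direct output of the loop (chromosome 7, 45705088 to 45710203). It was at 37.6 TPM in replicate 1 and 47.8 in replicate 2, from 543 and 662 counts. These counts are close to those of Nr1d1, whose TPM was lower, because the length used for Dbp was 942 and 929 bases. A transcript of 801 bases (ENSMUST00000107741) held 53.1% and 59.9% of the gene and one of 815 bases (ENSMUST00000155439) held 32.9% and 27.3%; neither was matched in the annotation used here. Dbp-201, the full coding transcript, was at 3.67 and 4.65 TPM, or 9.76% and 9.72%. All 539 bases of its last exon (45709665 to 45710203) overlap exons of Sphk2 on the opposite strand, a sphingosine kinase gene at 1.37 and 2.49 TPM from 81.3 and 118 counts. Of the remaining genes, Cry2 shares 295 exon bases with D930015M05Rik, at 0.330 and 0.120 TPM, and Arntl shares 33 with Gm45355, which was not analysed here.

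Because lengths bore on these levels, the order was set out on further scales. With counts divided by the length of all annotated exons, Nr1d2 came first at 118 and Per3 next at 73.3 per 1000000, followed by Cry1 at 29.1, Dbp at 24.9 and Cry2 at 23.2. Clock and Nr1d1 were both at 22.3, Arntl at 6.44, Per2 at 4.56 and Per1 at 3.30. With only transcripts typed as coding, Nr1d2 led at 66.9 ± 4.74 TPM, then Per3 at 25.4 ± 0.962 and Clock at 19.9 ± 0.198. On that scale Dbp was at 4.16 ± 0.693 TPM, a value that leaves out its unmatched transcripts. On all 3 scales Nr1d2 and Per3 were the upper pair and Per1 and Per2 the lower, and within each pair the order was not the same on all of them. Under 50% of TPM in coding transcripts was found for Per3 and Dbp, 2 of the 10, and for 15.6% of the protein-coding genes detected in both areas. In both counts transcripts with no match in the annotation were taken as not coding. They made up the rest of Dbp, so its rest is of unknown type, whereas the rest of Per3 was typed as other than coding.

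**Figure D3:**
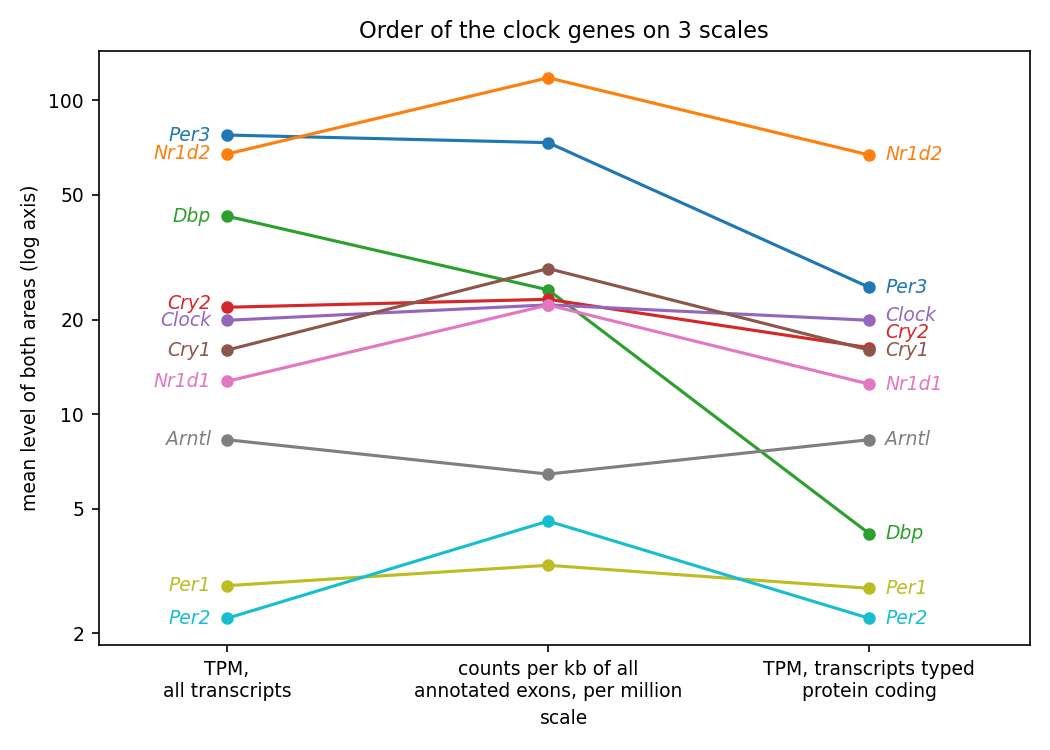
Mean level of both areas on a log axis for each clock gene on 3 scales: deposited TPM, counts per kilobase of all annotated exons scaled to 1000000, and TPM of transcripts typed as coding. Nr1d2 and Per3 stay on top and Per1 and Per2 near the bottom, while Dbp falls from 42.7 to 24.9 and 4.16, the last without its unmatched transcripts.

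Summed repressor transcripts outweighed summed activator transcripts per length in both areas. The sums hold unequal numbers of genes, so their ratio is not one of levels per gene. The summed TPM of the 3 Per and 2 Cry genes was 4.43 times that of Arntl and Clock in replicate 1 and 4.12 times in replicate 2. Per3 carried much of this: without it the ratio was 1.53, and with coding transcripts only it was 2.22. Single genes gave different answers against Arntl. Per3 was 9.37 ± 0.811 times Arntl and Dbp 5.14 ± 0.598 times, whereas Per1 and Per2 together were 0.749 and 0.486 times Arntl. With exon lengths in place of transcript lengths, Per1 and Per2 together were 1.30 and 1.14 times Arntl, so this direction turned with the length used. With coding transcripts only, Per3 was 3.27 and 2.87 times Arntl. Dbp was then 0.460 and 0.541 times Arntl, below it in both areas, a value that leaves out the unmatched transcripts of Dbp.

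The areas were then set against each other. By a two-sided exact binomial test on counts with Benjamini-Hochberg adjustment over 16659 genes, 3 of the 10 clock genes lay beyond counting error, against 47.6% of all genes tested. Nr1d1 was higher in replicate 2 by a fold of 1.29 in counts per 1000000 (95% counting interval 1.15 to 1.46, adjusted p = 0.000114). Dbp was higher in replicate 2 by a fold of 1.26 (1.13 to 1.42, adjusted p = 0.000252). Nr1d2 was lower in replicate 2, with a fold of 0.910 (0.875 to 0.946, adjusted p = 1.07e-05). Over all genes 23.7% were beyond counting error and higher in replicate 2, and 23.9% higher in replicate 1. The REV-ERB genes thus lay on opposite sides. The test compares these libraries and takes reads as independent molecules, which amplified reads are not; with counts divided by 10, none of the 10 genes and 0.696% of all genes passed.

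The other 7 clock genes did not pass. Closest to the threshold were Cry1, with a fold of 1.12 (1.01 to 1.24, adjusted p = 0.0548 by the exact binomial test), and Per3, with 0.962 (0.927 to 0.998, adjusted p = 0.0750 by the same exact test). Counts alone put 6 genes on the side of replicate 2 and 4 on that of replicate 1. The median log2 ratio of TPM + 1, replicate 2 over replicate 1, was -0.02 for the 10 genes and -0.01 for all genes tested, and the median size of that ratio was 0.14 and 0.21. From counts per 1000000 the median over the 10 genes was 0.07, so its sign turned with the scale. The marker sums given above also moved between the areas, down for red blood cells and up for oligodendrocytes and granule neurons in replicate 2; their part in these differences was not tested.

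**Figure D4:**
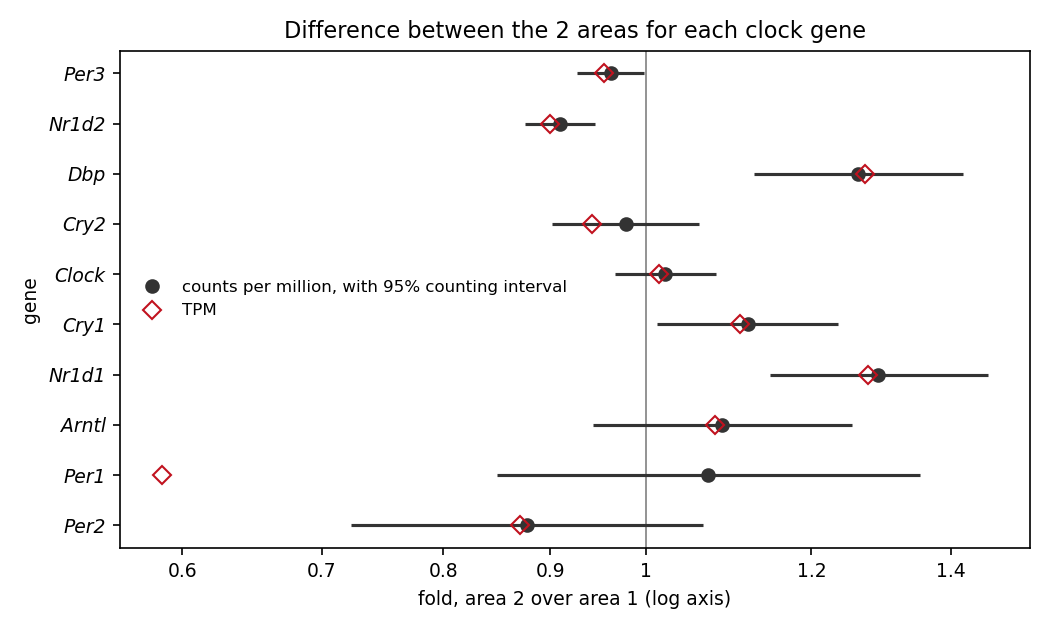
Fold of area 2 over area 1 on a log axis for each clock gene, from counts per 1000000 (dots, lines are 95% intervals that cover counting error only) and from TPM (diamonds). Dbp and Nr1d1 lie to the right of 1 and Nr1d2 to the left, and Per1 is the gene whose TPM fold falls outside its counting interval.

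Further genes of the clock were taken by role, 39 in all, of which 36 were detected in both areas. Their median was 20.4 TPM and their median log2 ratio -0.02. Of them 15 lay beyond counting error (38.5%, against 47.6% of all genes), 6 higher in replicate 1 and 9 in replicate 2. Of the activator paralogs, Arntl2 was at 5.87 and 5.65 TPM and Npas2, which can stand in for Clock, at 0.610 and 0.360, below the detection limit. Arntl2, like Per1, had TPM and counts that differed: it had 94 counts in replicate 1 and 185 in replicate 2.

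Further transcription factors that share binding sites with the loop came next. The ROR receptors, which compete with REV-ERB proteins, were all detected, from Rorb at 3.01 ± 0.467 TPM to Rora at 50.8 ± 5.80, and all 3 lay beyond counting error. Of the repressors outside PER and CRY, Bhlhe41 was highest at 63.5 ± 4.69 TPM and Bhlhe40 lowest at 20.3 ± 1.13; 1 of 3, Bhlhe41, lay beyond counting error. Among the PAR bZIP factors and their antagonist, Tef was at 62.6 ± 0.283 TPM, above Dbp, and the antagonist Nfil3 at 5.60 ± 0.608. Of these 3, 1 gene lay beyond counting error.

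Genes whose products modify PER and CRY proteins followed. By TPM the kinase list had the highest median of the lists, at 76.3, and the list of ubiquitin ligase subunits came next at 49.4. The wider lists were ranked by TPM alone, and their order on other lengths was not set out. Of 8 kinase genes, all were detected and 4 lay beyond counting error. The casein kinase 2 gene Csnk2a1 led at 238 ± 12.2 TPM and Gsk3a was lowest at 1.61 ± 0.283. Csnk2a1 had 2915 and 2788 counts in the areas, whereas Gsk3b had 16097 and 17812 counts at 132 ± 12.7 TPM. Of the ubiquitin ligase subunits and a deubiquitinase, Usp2 led at 69.5 ± 0.969 TPM, and Fbxl21, which acts on CRY, was lowest at 0.680 and 1.09 TPM and not detected in both areas. 1 of these 5 lay beyond counting error. Cofactors were led by Ncor1, the corepressor that REV-ERB proteins recruit, at 276 ± 20.1 TPM. The lowest by mean was Timeless at 3.72 and 8.91 TPM, from 93 and 237 counts. In replicate 2 alone another cofactor was lower, at 7.03 TPM. Of 10 cofactors 3 lay beyond counting error, Timeless among them. On the input side Creb1, which drives Per1 after stimulation, was at 32.8 ± 0.721 TPM and the kinase gene Sik1 at 0.110 and 0.230 TPM, not detected; none of 3 passed. The output genes Nampt and Wee1 were at 13.3 ± 2.92 and 6.54 ± 0.0636 TPM, and 1 of the 2, Nampt, passed.

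**Figure D5:**
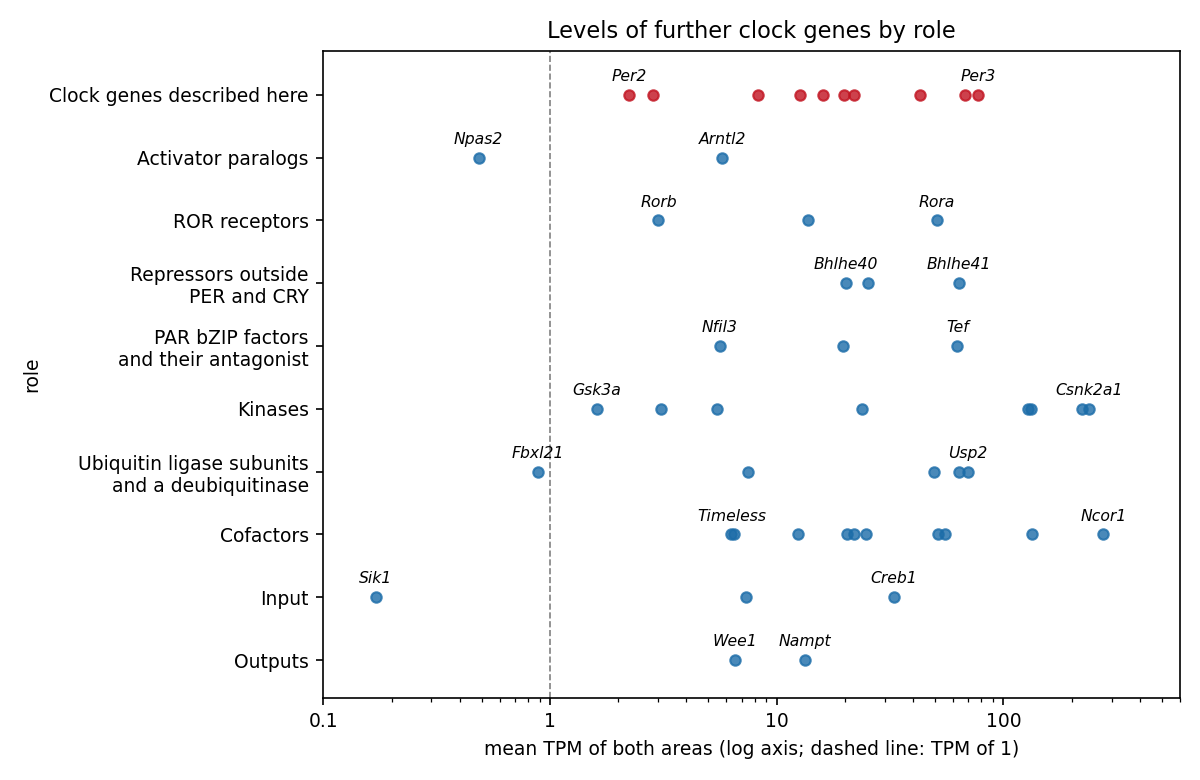
Mean TPM of both areas on a log axis for the 10 clock genes (red) and 39 further clock genes by role (blue), with the lowest and highest of each role named and a dashed line at a TPM of 1. Npas2, Fbxl21 and Sik1 lie below the line, and Ncor1 and Csnk2a1 reach 276 and 238 TPM.

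With 2 libraries of 1 kind, likeness between genes is likeness of level only. By distance of log2(TPM + 1) over both areas, the protein-coding gene nearest to Per3 was Ap1s2 at 79.3 and 75.0 TPM, and that nearest to Nr1d2 was Gatad1. Those nearest to Dbp, Cry2 and Clock were Mrps31, Med23 and Egr1, and to Cry1, Nr1d1 and Arntl they were Arhgdia, Haus2 and Ehmt2. Arl10 was nearest to Per1 and Jade3 to Per2. From 21 genes for Per1 to 96 for Clock lay within a distance of 0.1, so none of these neighbours stands alone.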

How the data were processed

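Per the labels, 2 captured areas were made into Smart-seq libraries from total RNA. The deposited expected counts and the deposited TPM values were estimated by the authors per gene and per transcript on mm10 with the GENCODE M4 annotation, per the deposited notes. The deposited percent columns give each transcript's share of its gene, and the deposited score columns hold a posterior SD of the count and an interval on TPM of unstated level, per the file headers. Aligner, counter, versions, read filters and strand use were not given in the sources used here. Depth and counting error limit precision as the counts printed beside each gene show, and intervals cover counting error only.

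Here names, types and coordinates came from GENCODE M21 (GRCm38, the same build), matched without version for 42462 of 43346 gene IDs; 26345 rows with no Ensembl ID were left out. Counts were rounded and compared by exact binomial tests with scipy 1.17.1 for genes with a summed count of at least 10. TMM totals and a biological coefficient of variation of 0.273 came from edgeR 4.0.16 and size factors from DESeq2 1.42.0. That coefficient is edgeR's term for spread between these 2 libraries beyond counting error, and whether it covers animals is not known. The genes and lists were chosen with earlier results of these data known. Named genes are the 10 clock genes and the highest, lowest and undetected of each wider list. Also named are genes that overlap the clock genes, their leading transcripts, their nearest gene by level and 3 markers of the layer. The other transcripts, and Acta2, Tagln, Lmx1a, Gdf10, Aldoc and Gsk3b, were named after their values were seen.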

Additional observations from a re-analysis of the deposited data

How the results depend on the processing

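The levels depend on the length used more than on the area. All 10 genes kept their rank with either area alone, the posterior mean or the geometric mean, but 2 did so per kilobase of all annotated exons, 3 with coding transcripts only and 0 with only the longest transcript; the last 2 scales were added after seeing the data. The median of the 10 genes was 17.5 and 18.4 TPM with 1 area alone, and 22.7, 14.2 and 13.4 on those 3 scales. The ratio of summed Per and Cry to summed Arntl and Clock was 4.12 and 4.43 with 1 area alone and 4.65 with exon lengths. It was 2.80 from expected counts, 2.22 with coding transcripts and 1.53 without Per3, the last pair also added. With counts divided by 10, the genes beyond counting error fell from 7931 to 116 and the clock genes from 3 to 0. TMM, DESeq2 size factors and no filter gave 3 clock genes each, beside 47.6%, 47.6% and 16.1% of all genes. The clock genes' 30% thus lay below the share of all genes with the filter and above it without. Without the filter that share covers all 43346 rows, also those with a summed count under 10. The shares with and without it are therefore of unlike sets of genes. At a TPM of at least 10, 7 of the 10 genes were detected. Per1's log2 ratio, replicate 2 over replicate 1, was -0.56 from TPM and 0.10 from counts, TMM or DESeq2 size factors, and the median over the 10 genes was -0.02 from TPM and 0.07 from each of those. Of the alternatives for levels of single genes, 52 moved by no more than the spread between areas and 18 by more. For percents of leading transcripts these numbers were 33 and 7. The 52 and 33 include values from 1 area alone and geometric means, which cannot move beyond that spread. Ratios between the areas have no such spread and are left out of these numbers. Among the ratios of single genes, that of Per1 changed sign. No paired analysis was possible because there is 1 group. With 2 areas of unstated time, neither phase nor spread between animals can be read.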
